A study of Homo sapiens with 14 samples.

Results

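The transcripts described here are 10 ERK output and feedback genes: the phosphatase genes DUSP4, DUSP5 and DUSP6, the receptor-signalling inhibitor genes SPRY2, SPRY4 and SPRED1, the ETS factor genes ETV4 and ETV5, and PHLDA1 and FOSL1. They were chosen by name as known products or brakes of the ERK pathway, with earlier results of these data known. Every probe annotated to them was taken. This gave 18 probes of the 30107 that carry a single gene symbol, and 10 genes of 20043. All 18 probes passed the filter on dim probes, and 16 of them were detected on all 14 arrays.

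Total RNA of the human melanoma lines WM266-4 and A375, which both carry a BRAF mutation per the labels, was labelled with biotin and hybridised to Illumina bead arrays. WM266-4 cells had received a control siRNA (Stealth RNAi negative control hi GC), FOXD1 siRNA 1 or FOXD1 siRNA 2, on 3 arrays each. A375 cells had received a FOXD1 plasmid (3 arrays) or its empty vector (2 arrays), described in the labels both as transfected and as transduced. FOXD1 is a forkhead transcription factor, and the study asked about its part in melanoma cells. Each line stands for a single tumour, and no time after transfection is given in the labels.

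The ERK pathway passes a growth signal from RAS through the RAF and MEK kinases to the kinase ERK. Active ERK switches on transcription of its own brakes: DUSP phosphatases remove phosphate from ERK, and Sprouty and SPRED proteins act against the signal further up, at RAS and RAF. Melanoma cells with an activating BRAF mutation have constant pathway activity, so transcripts of this kind are widely used as a readout of it. The arrays measured transcripts, and ERK phosphorylation was not analysed here.

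The siRNA sequences are shown because the siRNA groups differ in what they did to their named target. They are 25 bases long with a GC content of 32% and 60%, with the letters the labels give. The labels do not say which strand enters the silencing complex.
FOXD1 siRNA 1: uacugcuaggauuuccaauuguuaa
FOXD1 siRNA 2: gccgaggaaacagacaucgacgugg

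The promoters of DUSP6 and SPRY4 are shown because these genes had the clearest differences between groups. The 300 bases printed for each are from RefSeq (GRCh38.p14), chr12:89352452-89352751 and chr5:142324198-142324497, both on the minus strand. The DUSP6 window spans the listed gene start (base 89352501). The SPRY4 window lies inside the listed gene, downstream of its start (base 142325021), so the windows cover unlike positions. Capitals mark the ETS core motif CGGAA on either strand, a motif chosen after the sequences had been seen.
DUSP6: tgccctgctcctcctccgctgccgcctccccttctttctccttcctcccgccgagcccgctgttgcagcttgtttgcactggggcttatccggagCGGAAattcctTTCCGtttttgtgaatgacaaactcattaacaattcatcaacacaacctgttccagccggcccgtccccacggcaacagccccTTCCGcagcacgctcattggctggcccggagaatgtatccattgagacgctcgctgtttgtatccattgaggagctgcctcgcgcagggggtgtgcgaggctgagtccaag
SPRY4: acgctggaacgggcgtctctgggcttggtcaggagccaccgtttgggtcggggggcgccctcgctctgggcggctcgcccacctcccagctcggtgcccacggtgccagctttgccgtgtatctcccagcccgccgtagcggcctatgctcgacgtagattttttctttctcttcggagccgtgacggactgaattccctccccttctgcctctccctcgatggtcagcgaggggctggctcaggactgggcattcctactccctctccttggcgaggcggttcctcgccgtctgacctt

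The DUSP6 promoter held 3 CGGAA matches, at bases 96 to 100, 107 to 111 and 190 to 194 counted from the printed 5′ end, and SPRY4 held 0. Promoter sequences of 5 members were searched, and PHLDA1 and the first of the 3 SPRY2 entries held 2 matches each. Of 35116 promoters of this length, 34.9% held the motif. The AP-1 motif TGANTCA (in 7.71% of all promoters), the forkhead motif GTAAACA (3.42%) and the CRE motif TGACGTCA (1.85%) were found in none of the promoters searched. A match describes the letters only.

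Values are log2 signals after background correction and quantile normalization. A gene was called changed at a limma adjusted p (Benjamini-Hochberg) under 0.05, adjusted over all 32167 probes kept, and is represented by its brightest probe. The median intensity of an array lay between 91.6 and 104, and 46% to 50.4% of probes were detected. FOXD1 fell 2.63-fold with siRNA 1 (log2 change -1.39, SE 0.168, limma adjusted p = 0.000128) but was not lower in the arrays labelled siRNA 2, where it differed from control by 0.10 (95% interval -0.257 to 0.458, limma adjusted p = 0.852). All FOXD1 values rest on a single dim probe, with means of 5.81 with control siRNA and 4.42 with siRNA 1. It was detected on 1 of 3 siRNA 1 arrays, so background limits the size of that fall. One label field of those arrays names FOXD2, which differed by -0.04 there (limma adjusted p = 0.948). With the plasmid, FOXD1 was 0.42 above vector and did not pass (limma adjusted p = 0.253). The deposited intensity column of empty vector replicate 1 repeats that of overexpression replicate 3, so the authors' processed values were used for that array, and each value against empty vector rests on them. Of 9 melanocytic markers with a probe, 7 to 9 were detected on every array of a group. MLANA, a melanocyte antigen gene, was detected on none of the WM266-4 control arrays. Among markers of other cells, KRT1, CD3E and PDGFRA were detected on no array, while CD68, VWF and COL1A2 were detected on all arrays of every group. Others varied: EPCAM was detected on all arrays labelled siRNA 2 and on all A375 vector arrays, and KRT14 on all A375 vector arrays. DCN and LUM were detected on all WM266-4 control arrays.

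DUSP6 encodes a cytoplasmic phosphatase that acts on ERK and is among its most direct feedback products. In WM266-4 its log2 signal was 11.27, 11.66 and 11.42 with control siRNA and 10.61, 10.74 and 10.93 with siRNA 1. It was 10.43, 10.72 and 10.61 in the arrays labelled siRNA 2. Each of the 6 siRNA arrays lay below each control array. How many of all genes separate in this way was not counted, for DUSP6 or for the members below. In such bulk RNA, fewer expressing cells and less RNA per cell cannot be told apart. DUSP6 fell 1.61-fold with siRNA 1 (log2 change -0.69, SE 0.157, limma adjusted p = 0.013) and 1.82-fold in the arrays labelled siRNA 2 (-0.86, SE 0.157, limma adjusted p = 0.00605). Both differences were taken against the same 3 control arrays. The siRNA groups differed from each other by 0.18 (95% interval -0.158 to 0.512, limma adjusted p = 0.718). FOXD1, by its single dim probe, was lower with siRNA 1 only, and the cause of the DUSP6 falls was not tested. Without control replicate 2, the highest of the control arrays, the siRNA 1 difference was -0.58 and was no longer called (limma adjusted p = 0.0732, the highest over 25 alternatives, the lowest being 0.00064). The call was also lost with median scaling (-0.57, limma adjusted p = 0.0582) and without siRNA 1 replicate 1 (-0.61, limma adjusted p = 0.0677).

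A further DUSP6 probe (ILMN_1677466), annotated to another transcript, had signals of 8.14, 8.25 and 8.18 with control siRNA. It had 7.04, 7.17 and 7.16 with siRNA 1, and the arrays labelled siRNA 2 gave 6.98, 6.31 and 6.96, again with no overlap. It fell 2.09-fold (limma adjusted p = 0.0048) and 2.72-fold (limma adjusted p = 0.00109). In A375 the main DUSP6 probe was at 10.51 and 10.64 with vector and at 10.57, 10.23 and 10.32 with overexpression, which overlap. The difference was -0.20 (95% interval -0.576 to 0.174, limma adjusted p = 0.628).

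DUSP5 encodes a nuclear phosphatase specific for ERK. Its signal was 9.59, 10.07 and 10.39 with control siRNA and 9.31, 9.23 and 9.76 with siRNA 1. In the arrays labelled siRNA 2 it was 9.11, 8.34 and 9.86, so each siRNA group overlapped the controls. The differences of -0.59 and -0.92 did not pass (limma adjusted p = 0.484 and 0.268). In A375 it was 8.22 and 8.65 with vector and 9.17, 8.11 and 7.5 with overexpression, the widest spread of any member in a group (SD 0.84, n = 3). The overexpression difference was -0.18 (limma adjusted p = 0.894), and it was 0.20 without overexpression replicate 3.

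DUSP4 encodes a nuclear phosphatase that acts on ERK and on related kinases, and its means lay on the other side of control from those of DUSP6. Its signal was 7.88, 7.96 and 7.78 with control siRNA, 8.04, 8.56 and 8.20 with siRNA 1, and the arrays labelled siRNA 2 gave 8.39, 8.20 and 8.24. Each siRNA array lay above each control array. The differences of 0.39 (95% interval 0.0601 to 0.728) and 0.40 (0.0705 to 0.738) did not pass (limma adjusted p = 0.166 and 0.203). A dimmer DUSP4 probe (ILMN_2283398) differed by 0.14 and -0.09, so the probes did not share a sign in the arrays labelled siRNA 2. With overexpression DUSP4 was at 8.25, 8.28 and 8.39 against 8.20 and 8.53 with vector, a difference of -0.06 (limma adjusted p = 0.905).

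**Figure D1:**
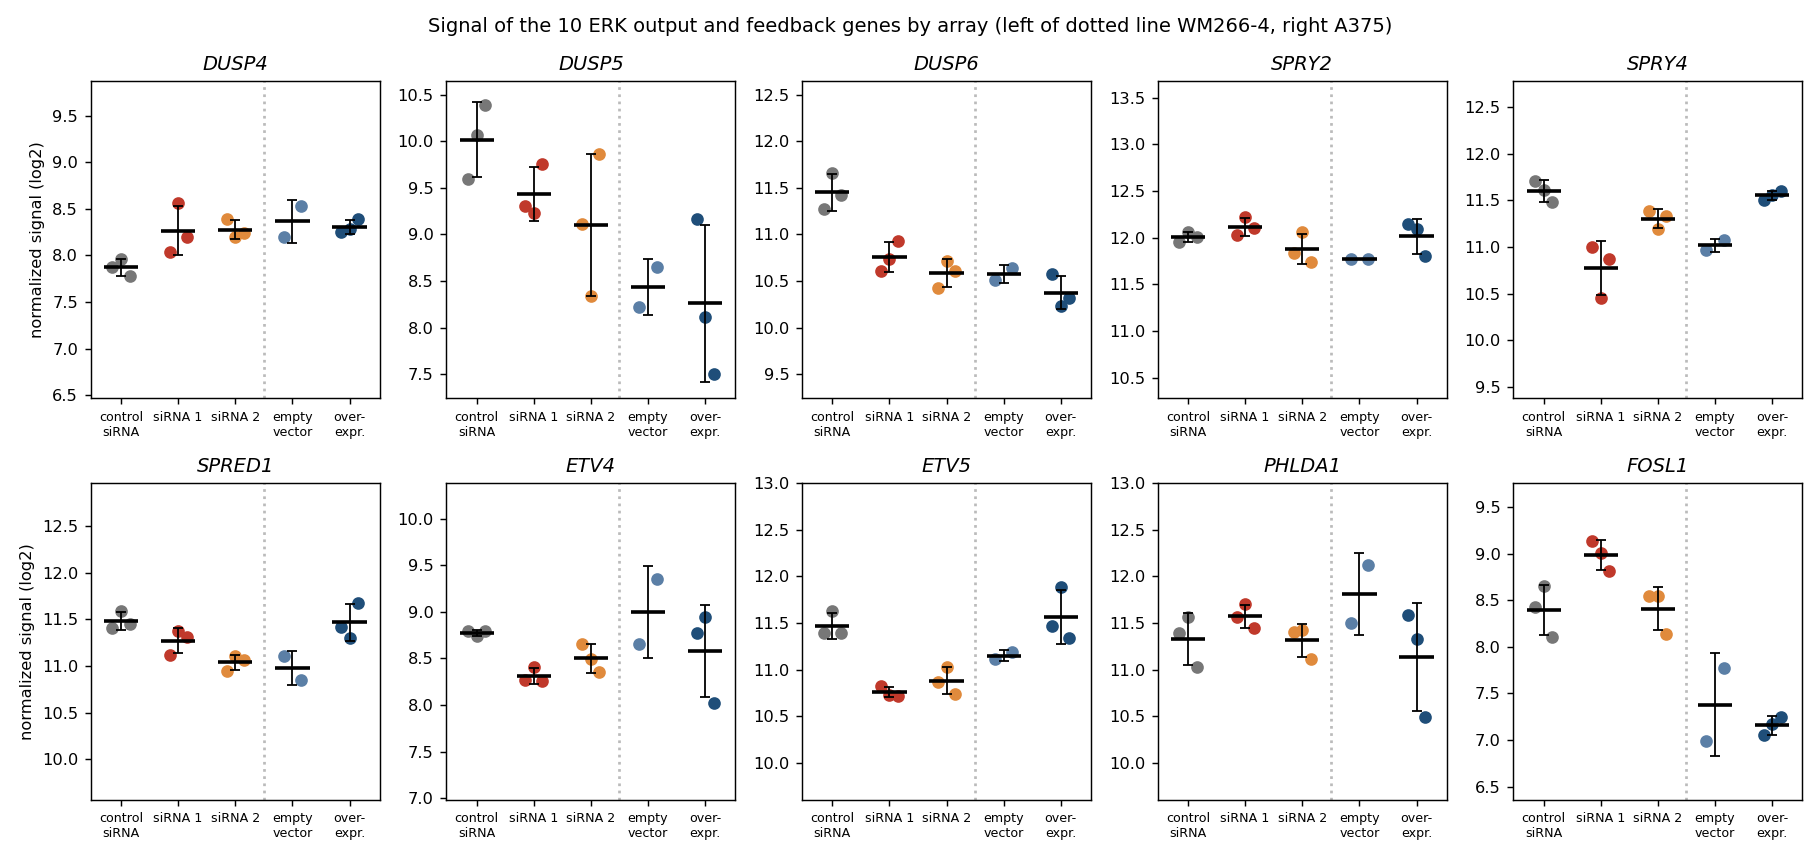
Normalized log2 signal (vertical axis, each panel spanning the same range) of the 10 genes on each of 14 arrays, by group (horizontal axis). Points are arrays, horizontal lines group means and bars 1 SD. The siRNA points lie below all control points for DUSP6, SPRY4, SPRED1, ETV4 and ETV5 and above them for DUSP4. The share of all genes that separate in this way was not counted.

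SPRY4 encodes a Sprouty protein, an inhibitor of receptor signalling towards RAS and RAF, and was the member with the largest fall in FOXD1 siRNA 1 arrays by its main probe. Its signal was 11.71, 11.61 and 11.48 with control siRNA and 11.00, 10.45 and 10.87 with siRNA 1, with no overlap. SPRY4 fell 1.78-fold (log2 change -0.83, SE 0.153, limma adjusted p = 0.00333). In the arrays labelled siRNA 2 it was 11.39, 11.19 and 11.33, all below the controls, and the difference of -0.30 did not pass (95% interval -0.627 to 0.0247, limma adjusted p = 0.372). The direct difference between the siRNA groups was -0.53 (95% interval -0.854 to -0.202) and did not pass (limma adjusted p = 0.0874). It passed with the authors' values, without background correction and with trend and robust moderation. Over the alternatives its adjusted p ran from 0.00951 to 0.298.

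In A375, SPRY4 was at 10.97 and 11.07 with vector and at 11.50, 11.56 and 11.60 with overexpression. All overexpression arrays lay above both vector arrays, by 1.45-fold on average (log2 difference 0.53, 95% interval 0.17 to 0.899), and this did not pass (limma adjusted p = 0.0996, 0.0173 to 1 over the alternatives). With the copied column as deposited the difference was 0.22. A further SPRY4 probe (ILMN_1797596) fell 2.16-fold with siRNA 1 (limma adjusted p = 0.00429), differed by -0.63 in the arrays labelled siRNA 2 (limma adjusted p = 0.13), and was 0.64 higher with overexpression (limma adjusted p = 0.163). The remaining pair of SPRY4 probes was dim, between 4.27 and 5.46, and was called in no comparison (ILMN_1688811 and ILMN_1741168). ILMN_1741168 was not above background on either vector array.

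SPRED1 encodes a membrane protein that recruits neurofibromin, which switches RAS off. Its signal was 11.41, 11.59 and 11.45 with control siRNA, 11.12, 11.38 and 11.31 with siRNA 1, and the arrays labelled siRNA 2 gave 10.95, 11.11 and 11.06. All siRNA arrays lay below all control arrays, and the differences of -0.21 and -0.44 did not pass (limma adjusted p = 0.492 and 0.122). In A375 it was 11.11 and 10.85 with vector and 11.42, 11.30 and 11.68 with overexpression, again without overlap, and the difference of 0.49 did not pass (95% interval 0.138 to 0.835, limma adjusted p = 0.117). SPRY2, a further Sprouty gene and the brightest probe among the members, stayed between 11.74 and 12.22 on all arrays. Its differences were 0.11, -0.13 and 0.24 with siRNA 1, siRNA 2 and overexpression (limma adjusted p = 0.778, 0.762 and 0.481).

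ETV5 encodes an ETS transcription factor of the PEA3 group, whose transcription follows ERK activity in many cells. Its signal was 11.39, 11.63 and 11.39 with control siRNA, 10.82, 10.73 and 10.72 with siRNA 1, and the arrays labelled siRNA 2 gave 10.87, 11.03 and 10.74. All siRNA arrays lay below all controls. ETV5 fell 1.64-fold with siRNA 1 (log2 change -0.71, SE 0.158, limma adjusted p = 0.011). The difference of -0.59 in the arrays labelled siRNA 2 missed the threshold (limma adjusted p = 0.0536), and 10 of 25 alternatives put it below (0.00441 to 0.191 over them). A further ETV5 probe (ILMN_1723260) fell in both, with log2 changes of -0.75 and -0.64 (limma adjusted p = 0.00565 and 0.027). Without control replicate 2, the siRNA 1 difference of the main ETV5 probe was -0.63 and not called (limma adjusted p = 0.0592, the lowest over the alternatives being 0.000319). In A375, ETV5 was at 11.11 and 11.19 with vector and at 11.47, 11.89 and 11.34 with overexpression, all higher, and the difference of 0.42 did not pass (95% interval 0.0434 to 0.796, limma adjusted p = 0.225).

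ETV4, of the same ETS group, had signals of 8.79, 8.74 and 8.80 with control siRNA, 8.27, 8.41 and 8.26 with siRNA 1, and the arrays labelled siRNA 2 gave 8.66, 8.49 and 8.35. All siRNA arrays were lower, and neither the difference of -0.46 nor that of -0.28 passed (limma adjusted p = 0.273 and 0.632). In A375 it was 8.65 and 9.35 with vector and 8.77, 8.95 and 8.02 with overexpression. The groups overlap, and the difference was -0.42 (limma adjusted p = 0.422), -0.14 without overexpression replicate 3 and -0.07 without vector replicate 2. ETV4 and ETV5 thus had differences of opposite sign with overexpression, neither of which passed. A further ETV4 probe (ILMN_2341661) had the same signs as the main ETV4 probe throughout these comparisons (-0.58, -0.40 and -0.56).

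PHLDA1 encodes a protein with a pleckstrin homology-like domain that binds membrane lipids. Its signal was 11.39, 11.57 and 11.03 with control siRNA, 11.57, 11.70 and 11.45 with siRNA 1, and the arrays labelled siRNA 2 gave 11.40, 11.43 and 11.11. These overlap, with differences of 0.25 and -0.02 (limma adjusted p = 0.685 and 0.988). In A375 it was 11.50 and 12.12 with vector and 11.59, 11.33 and 10.49 with overexpression, a difference of -0.67 that did not pass (limma adjusted p = 0.222). It was -0.35 without overexpression replicate 3 and -0.36 without vector replicate 2, and a further PHLDA1 probe (ILMN_3251550) differed by 0.06.

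FOSL1 encodes FRA1, a Fos-family subunit of the transcription factor AP-1 whose protein ERK stabilises. Its signal was 8.43, 8.65 and 8.11 with control siRNA and 9.13, 9.01 and 8.81 with siRNA 1, all higher. The difference of 0.59 (1.5-fold) did not pass (95% interval 0.151 to 1.03, limma adjusted p = 0.104, 0.0284 to 0.306 over the alternatives, 5 of which called it). One of these had the replicate number as a block, which pairs the control and siRNA 1 arrays, and called FOSL1 at the same difference (limma adjusted p = 0.0375). In the arrays labelled siRNA 2 FOSL1 was 8.54, 8.55 and 8.14, within the control range, a difference of 0.01 (limma adjusted p = 0.988). The direct difference between the siRNA groups, 0.58, did not pass (limma adjusted p = 0.185). With overexpression FOSL1 was at 7.05, 7.17 and 7.25 against 6.99 and 7.77 with vector, a difference of -0.22 (limma adjusted p = 0.692).

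The members were chosen with earlier results of these data known, so the shares here and below describe them and test nothing. Counted over the members, 3 of 10 fell with siRNA 1 (DUSP6, SPRY4 and ETV5) and 0 rose, against 11.1% of all 15544 genes called. In the arrays labelled siRNA 2, 1 of 10 fell (DUSP6) and 0 rose, against 5.04% of all genes. For the mean of the siRNA groups 3 of 10 fell, against 8.97%: DUSP6 (-0.78, limma adjusted p = 0.00277), ETV5 (-0.65, limma adjusted p = 0.00925) and SPRY4 (-0.57, limma adjusted p = 0.0176). The median log2 change of the members was -0.34 with siRNA 1 and -0.29 in the arrays labelled siRNA 2, and that of all genes 0.01 and 0.00. Without control replicate 2, 1 member was called with siRNA 1 and 1 for the mean of the siRNAs. Between the siRNA groups directly, limma called 0 members, against 4.36% of all genes, and 2 had an unadjusted p under 0.05, against 16.8% of all genes. With overexpression limma called 0 of 10 members, against 5.11% of all genes, and 4 had an unadjusted p under 0.05, against 21.8% of all genes. The authors' values, no background correction and trend and robust moderation each called 2 there, SPRY4 and SPRED1, while calling 1550, 1520 and 1294 of all genes in place of 795. The median of the members with overexpression was -0.12, and that of all genes 0.00.

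**Figure D2:**
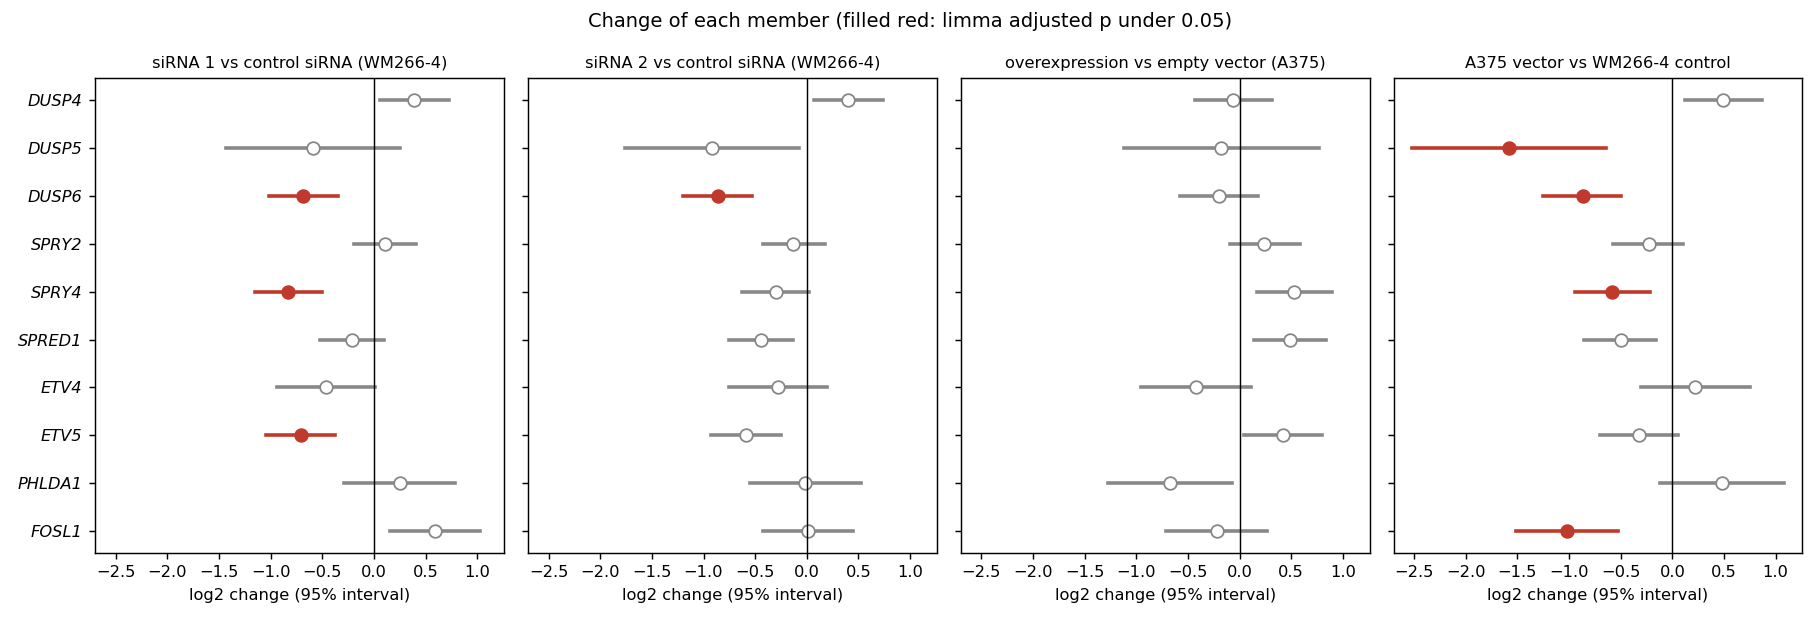
Log2 change of each of the 10 genes (points, main probe) with its 95% interval (lines) in 4 comparisons, on a common horizontal axis. Filled red points have a limma adjusted p under 0.05: DUSP6, SPRY4 and ETV5 with siRNA 1, DUSP6 in the arrays labelled siRNA 2, none with overexpression, and DUSP5, DUSP6, SPRY4 and FOSL1 between the control arrays of the lines.

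Of the members, 6 had several probes. Probe by probe, 6 of 18 were called with siRNA 1, against 7.93% of all 32167 probes, and 3 of 18 in the arrays labelled siRNA 2, against 3.63%, all lower. The called probes with siRNA 1 were the pairs of DUSP6 and ETV5 and the brighter pair of SPRY4. In both DUSP6 comparisons the dimmer probe had the larger change.

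**Figure D3:**
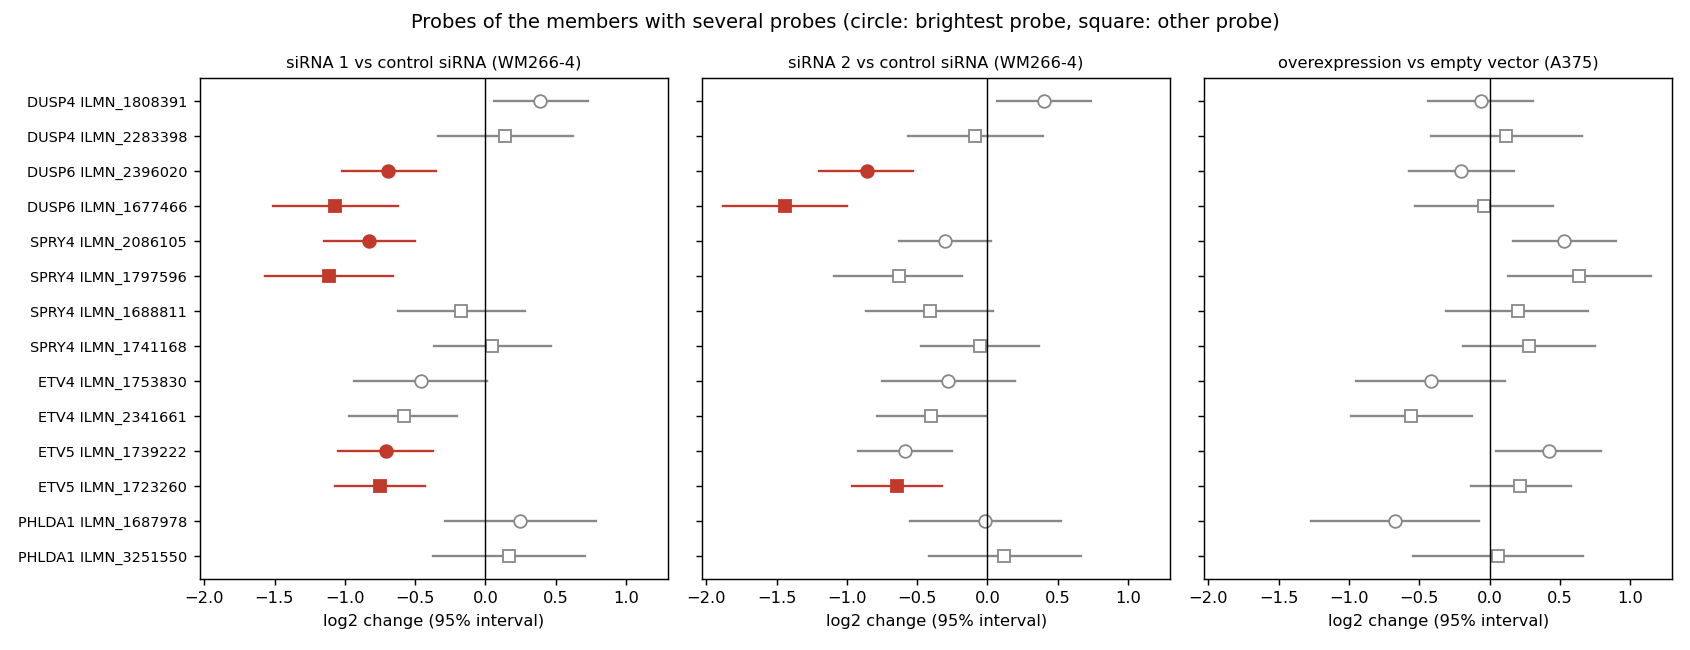
Log2 change with its 95% interval for each probe of the 6 genes with several probes. Circles are the brightest probe of a gene and squares the others, and filled red marks have a limma adjusted p under 0.05. The DUSP6 and ETV5 probes and the brighter pair of SPRY4 probes lie left of 0 in both siRNA panels. With overexpression the PHLDA1 points lie on either side of 0, with overlapping intervals.

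The control arrays of the lines were set side by side to ask how the members' levels differ between WM266-4 and A375. Line and kind of control (siRNA or vector) cannot be told apart here. FOXD1 itself was 2.83-fold higher in A375 vector than in WM266-4 control arrays (log2 difference 1.5, limma adjusted p = 0.000147). In A375 vector arrays 4 of 10 members were lower than in WM266-4 control arrays and 0 were higher, against 18.2% of all genes called. DUSP5 was 2.99-fold lower (log2 difference -1.58, SE 0.441, limma adjusted p = 0.0265), FOSL1 2.02-fold lower (-1.02, SE 0.229, limma adjusted p = 0.00798), DUSP6 1.83-fold lower (-0.87, SE 0.176, limma adjusted p = 0.0039) and SPRY4 1.5-fold lower (-0.58, SE 0.171, limma adjusted p = 0.0337). For each of these the groups did not overlap, and the same held for DUSP4, SPRY2, SPRED1 and ETV5, which were not called. The share of all genes that separate in this way was not counted. DUSP6 was called in this comparison under each of 23 alternatives (limma adjusted p from 9.25e-05 to 0.0389), whereas DUSP5 and SPRY4 each lost the call in 6 of them and FOSL1 in 1. Without empty vector replicate 1, whose values are the authors', 1 of the 4 calls was left and the FOSL1 difference was -0.62. Without empty vector replicate 2, or without control replicate 2, 2 members were called. SPRED1 was lower by -0.5 without overlap and did not pass (limma adjusted p = 0.0521), though 8 of 23 alternatives called it. The DUSP4 difference was 0.49 in the other direction and did not pass (limma adjusted p = 0.0754).

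In the order of group means, DUSP5 and DUSP6 had the same sequence: WM266-4 control highest, then siRNA 1, siRNA 2, A375 vector and A375 overexpression lowest. For DUSP6 the control arrays stood clear of all other groups, and each later neighbour overlapped the next. SPRY4 was highest with WM266-4 control and A375 overexpression, whose arrays overlap, followed by siRNA 2 and then by A375 vector and siRNA 1, which also overlap. ETV5 was highest with overexpression and control, which overlap, and lowest with the siRNA groups, which overlap each other and lie below A375 vector. The FOSL1 order set every WM266-4 array above every A375 array, and SPRY2 means spanned only 0.34 over the 5 groups.

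The difference between the lines was tested by taking the A375 change (overexpression less vector) and subtracting the WM266-4 change (control less the average of both siRNA groups). It was called for 1 of 10 members, against 6.08% of all genes: DUSP6, at -0.98 (95% interval -1.45 to -0.503, limma adjusted p = 0.0238). Probe by probe it was called for 3 of 18, against 4.32% of all probes: both of DUSP6 and the dimmer one of ETV4. DUSP6 was higher by 0.78 in control than in siRNA arrays of WM266-4 and lower by 0.20 with overexpression than with vector in A375. The call was lost under 6 of 24 alternatives, among them the copied column as deposited (-0.88, limma adjusted p = 0.149, the highest of them) and each omission of an empty vector array. For SPRY4 the difference was -0.03 (95% interval -0.491 to 0.43, limma adjusted p = 0.965) and for SPRED1 0.16 (-0.283 to 0.598, limma adjusted p = 0.764).

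Other genes of the pathway were taken from fixed lists, each read against the same shares of all genes called. These shares were 11.1% with siRNA 1, 5.04% in the arrays labelled siRNA 2 and 5.11% with overexpression. These lists too were chosen with earlier results of these data known. Of 11 other ERK output genes measured, 4 fell with siRNA 1 and 0 rose, with a list median of -0.64. EPHA2, a receptor tyrosine kinase gene, fell 1.95-fold (log2 change -0.96, SE 0.159, limma adjusted p = 0.00151), and EGR1, an immediate early transcription factor gene, fell 1.92-fold (limma adjusted p = 0.0136). LIF, a cytokine gene, fell 1.98-fold (limma adjusted p = 0.0354), and IER3, an immediate early gene, fell 1.56-fold (limma adjusted p = 0.0273). In the arrays labelled siRNA 2, EPHA2 fell 1.88-fold (limma adjusted p = 0.00466) and IER3 1.66-fold (limma adjusted p = 0.0246), while MYC, a growth-promoting transcription factor gene, rose 1.48-fold (limma adjusted p = 0.0316), and the median was -0.41. With overexpression CXCL8, a chemokine gene, rose 2.19-fold (limma adjusted p = 0.0135) and IER3 fell 1.65-fold (limma adjusted p = 0.0446), so IER3 was lower in every comparison with a control. MLANA and COL1A2 rose in the same overexpression arrays, by 3.87-fold and 3.01-fold (limma adjusted p = 0.0251 and 0.00475). Of 9 melanocytic markers, 2 rose with overexpression and 7 were not called, with a median log2 change of 0.01. Of 4 fibroblast markers, 1 rose with overexpression and 3 were not called, with a median of 0.1. Over whole lists, the mean log2 signal there was 9.20 to 9.99 for 9 melanocytic markers against 9.52 to 9.64 with vector. It was 5.98 to 6.35 for 4 fibroblast markers against 5.95 to 5.96 with vector. The part of these markers in the results was not tested.

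Of 11 other brakes on the cascade measured, 2 fell with each siRNA. Calls in either direction covered 18.2% of them with siRNA 1, against 11.1% of all genes. In the arrays labelled siRNA 2 they covered 27.3%, against 5.04%. RASA2, a gene for a protein that switches RAS off, fell 1.91-fold with siRNA 1 and 2.10-fold in the arrays labelled siRNA 2 (limma adjusted p = 0.00541 and 0.00438). ERRFI1, whose protein inhibits EGF receptors, fell 1.68-fold and 2.00-fold (limma adjusted p = 0.0195 and 0.00671). DUSP3, another phosphatase gene, rose 1.57-fold in the arrays labelled siRNA 2 (limma adjusted p = 0.0481). Of 4 phosphatases that act mainly on p38 and JNK, DUSP10 rose 2.03-fold with siRNA 1 (limma adjusted p = 0.0261), and no other call was made in these 3 comparisons.

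Of 10 kinases, adaptors and RAS proteins of the cascade itself that were measured, 2 were called with siRNA 1, against 11.1% of all genes. HRAS rose 1.60-fold (limma adjusted p = 0.00805) and RPS6KA3, a kinase that ERK activates, fell 1.66-fold (limma adjusted p = 0.0319). HRAS rose 1.75-fold in the arrays labelled siRNA 2 (limma adjusted p = 0.00489) and fell 1.78-fold with overexpression (limma adjusted p = 0.0121). Its transcript therefore had the opposite sign to DUSP6 and ETV5 in the siRNA arrays. Among 6 AP-1 genes related to FOSL1, FOSB fell 2.29-fold and 2.85-fold with the siRNAs (limma adjusted p = 0.037 and 0.0195). JUND rose 2.66-fold and 2.54-fold (limma adjusted p = 3.3e-05 and 0.00014), and JUN rose 2.70-fold with overexpression (limma adjusted p = 0.0185). Among 8 other ETS factors, ELF1 fell 1.80-fold with siRNA 1 (limma adjusted p = 0.00901) and ERF, a repressor that ERK inactivates, fell 1.94-fold with overexpression (limma adjusted p = 0.0108). Calls with siRNA 1 covered 33.3% of the AP-1 genes and 12.5% of the ETS factors, against 11.1% of all genes. In the arrays labelled siRNA 2 they covered 33.3% and 0%, against 5.04%. With overexpression they covered 16.7% and 12.5%, against 5.11%.

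**Figure D4:**
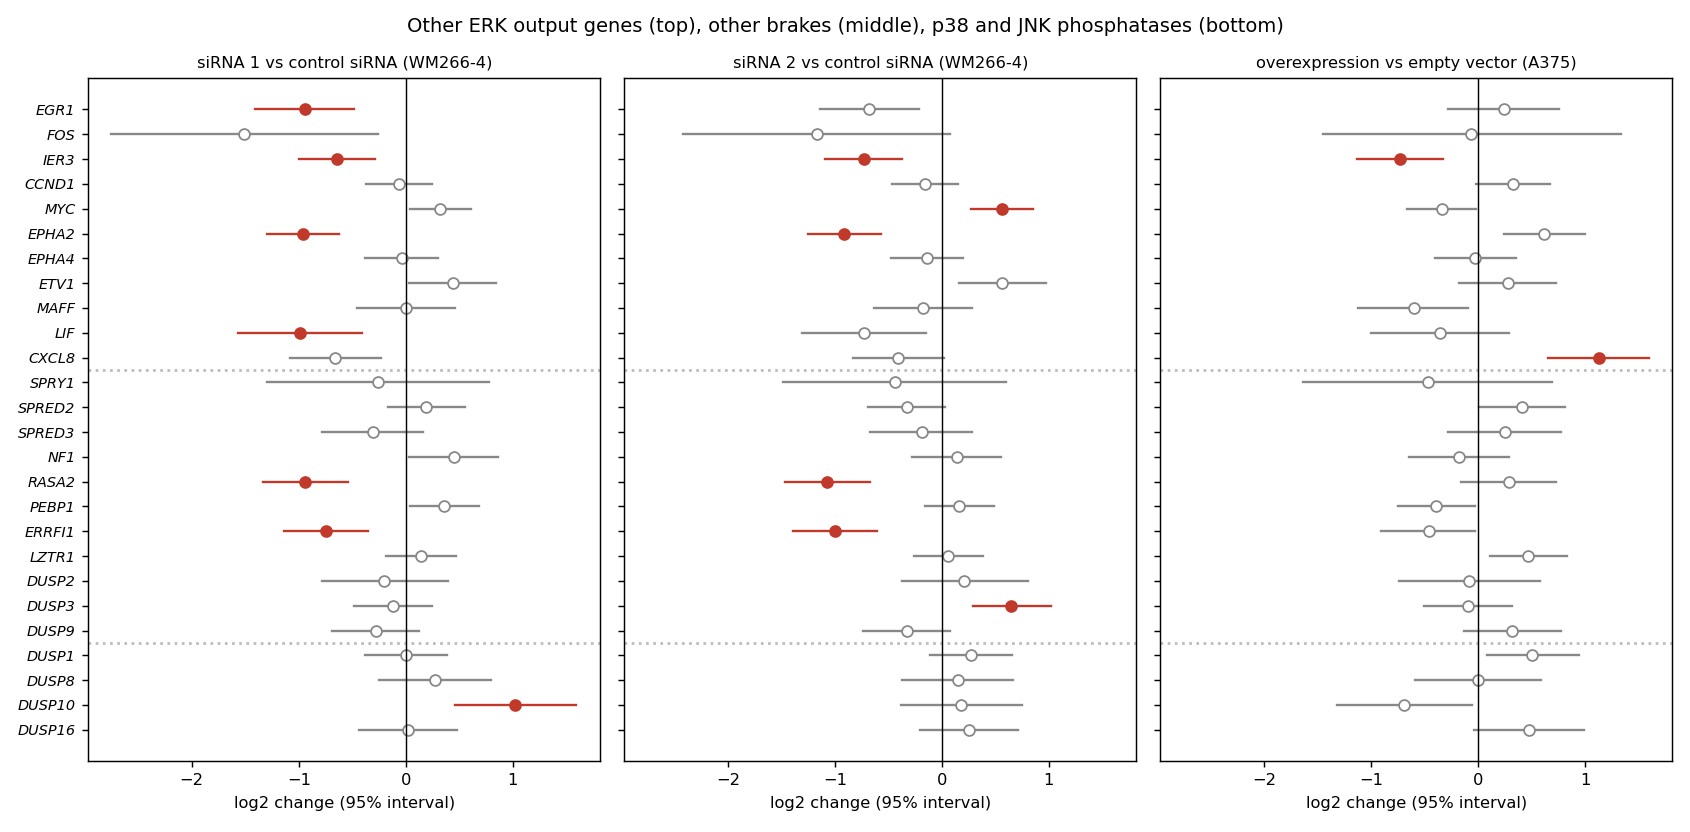
Log2 change with its 95% interval for 11 other ERK output genes (top), 11 other brakes on the cascade (middle) and 4 phosphatases of p38 and JNK (bottom) with siRNA 1, siRNA 2 and overexpression. Filled red points have a limma adjusted p under 0.05: EGR1, IER3, EPHA2, LIF, RASA2, ERRFI1 and DUSP10 with siRNA 1, IER3, MYC, EPHA2, RASA2, ERRFI1 and DUSP3 in the arrays labelled siRNA 2, and CXCL8 and IER3 with overexpression.

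The genes most like DUSP6 over the 9 WM266-4 arrays, of 15543 others, were LRRC8C and EMP1 (Pearson r = 0.964 each), CHSY1 and IFNLR1 (0.962 each) and CHMP5 (0.961). Of the members, SPRED1 stood at rank 71 (r = 0.917) and ETV5 at rank 155 (0.882), whereas SPRY4 stood at rank 2470 (0.507) and DUSP4 at rank 14380 (-0.72). These r describe arrays that share 3 groups and a common scaling, and no test was made of them.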

How the data were processed

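The deposited table holds, per the file headers, an intensity of each probe and array on a linear scale, not normalized, with a detection p-value beside it. How it was computed is not stated. A second deposited table holds log2 values made by the authors. In WM266-4 they differed by at most 0.00746 from log2 of the intensities after quantile normalization within the line without background subtraction. Between empty vector replicate 1 and overexpression replicate 3, 100% of probes had intensities within 1% (the next pair 7.37%). Over dim probes, lower detection p-values of empty vector replicate 1 went with higher authors' log2 values of that array (rho = 0.983 with its sign changed). With the repeated intensities this rho was 0.128, so the antilog of those log2 values replaced the column.

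Of 48107 probes, 10 with missing values were left out. The platform annotation gave 1 symbol to 30107 probes, several to 8 and none to 17982, and 30068 of the named ones matched RefSeq genes (GRCh38.p14). Intensities were corrected with normexp from the detection p-values (offset 16), quantile normalized over 14 arrays and logged to base 2 (limma 3.58.1, statmod 1.5.0, R 4.3.3). Probes with a detection p-value under 0.05 on at least 2 arrays were kept: 32167 probes and 15544 genes. A single limma fit held 5 group means (9 residual and 5.81 prior degrees of freedom), and the procedure was tested on simulated data. Benjamini-Hochberg adjustment ran over all probes kept, and 95% intervals are per probe. Alternatives covered background, scaling, the authors' values, the copied column, filters, moderation, 1 line only, the replicate number and each array left out.

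Members and lists were chosen with earlier results of these data known. Named are all members, FOXD1 and FOXD2, and the 5 genes most like DUSP6. Genes of the other pathway lists are named where called with siRNA 1, siRNA 2 or overexpression (at most the 4 largest changes per list and comparison). List genes called in the other comparisons are not reported for them, and not all called markers are named. A few markers are also named by whether they were detected. Sample titles gave groups and replicate numbers. Whether replicates came from separate cultures is not stated, and each p-value reflects only the spread among these arrays, possibly a technical one. The small number of arrays limits the precision. Numbers were taken as pairs where the deviations of all same-numbered arrays of 3 pairs correlated above 0.1. This held between control and siRNA 1 (r = 0.113 to 0.19) and between the siRNA groups (0.11 to 0.198), but not between control and siRNA 2 (0.0868 to 0.163) or in A375 (2 pairs, -0.0265 and 0.0294). Over all WM266-4 groups, the 9 same-numbered pairs had r from 0.0868 to 0.198 and the 18 others from -0.134 to -0.0256. Control and siRNA 2 were thus set apart by the threshold alone. The pairing comes from these correlations, and the labels give only the numbers. Cascade and list genes without a probe of 1 symbol were not analysed here.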

Additional observations from a re-analysis of the deposited data

Results flagged for a closer look

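The contrast of more against less FOXD1, as labelled, differed between the lines by a direct test for 3 of 18 probes of the members, against 4.32% of all 32167 probes. For DUSP6 the difference was -0.98 with the main probe (ILMN_2396020, limma adjusted p = 0.0238) and -1.29 with the further probe (ILMN_1677466, limma adjusted p = 0.0235). For ETV4 it was -1.05 with the dimmer probe (ILMN_2341661, limma adjusted p = 0.0331). The main ETV4 probe had -0.79 and did not pass (limma adjusted p = 0.189). In A375 this contrast uses the authors' values for empty vector replicate 1, and in WM266-4 it includes the arrays labelled siRNA 2, in which FOXD1 was not lower.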

How the results depend on the processing

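No member comparison reversed its sign where it was called. Of 12 calls among the members' main probes, 4 kept their call under every alternative run: DUSP6 in the arrays labelled siRNA 2, for the mean of the siRNAs and between the control arrays, and SPRY4 with siRNA 1. Of 58 results not called, 47 stayed so. All genes called were 1723 with siRNA 1, 784 with siRNA 2, 1394 for the mean of the siRNAs, 677 between the siRNAs, 795 with overexpression, 2832 between the control arrays and 945 for the difference between the lines. Without background correction these became 1296 with siRNA 2, 1047 between the siRNAs, 1520 with overexpression and 1613 for the difference between the lines, and with the authors' values 1308, 1044, 1550 and 1633. Both settings called 3 members with siRNA 2, 5 for the mean of the siRNAs, 1 between the siRNAs and 2 with overexpression. Trend and robust moderation called 3 members with siRNA 2, 1 between the siRNAs, 2 with overexpression and 1294 genes with overexpression. Median scaling called 0 members for the difference between the lines. The copied column as deposited called 0 genes with overexpression, and 138 genes and 0 members for the difference between the lines. Arrays of 1 line only called 123 genes with overexpression. No filter, the stricter filter, 1 probe per gene, 1 line only and the replicate block each called 2 members with siRNA 2. With siRNA 2 the block changed the call of ETV5 (limma adjusted p = 0.0341, 0.00441 to 0.191 over the alternatives), in groups that missed the threshold for pairs. With siRNA 1, taken as paired with control, it changed that of FOSL1 (limma adjusted p = 0.0375, 0.0284 to 0.306 over the alternatives) and gave 2217 genes. It changed no other call of a member. Every WM266-4 array correlated best with its own number, a hint from the data and not the design. The block lies within a line and was not run for levels between the lines. Leaving out 1 array gave 1047 to 1959 genes with siRNA 1, 390 to 972 with siRNA 2, 726 to 1605 for the mean of the siRNAs, 327 to 782 between the siRNAs, 82 to 800 with overexpression, 1406 to 3143 between the control arrays and 310 to 972 for the difference between the lines. It gave 1 to 3 members with siRNA 1, 1 to 2 with siRNA 2, 1 to 3 for the mean of the siRNAs, 1 to 5 between the control arrays and 0 to 1 for the difference between the lines. Where a group was left with 1 array, that array was assumed to vary like the other groups. The cause of these changes was not tested. The number of arrays limits what could be called, and the dim SPRY4 probes lie near background.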
